A study of Macaca mulatta with 23 samples.

Results

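The 10 transcription factors that shape effector and memory CD8+ T cells, TBX21, EOMES, RUNX3, ZNF683, HOPX, ID2, PRDM1, ZEB2, BHLHE40 and IKZF3, were followed through every array probe that the platform annotation assigns to one of these 10 symbols. That gave 19 probes out of 47230 on the array. Of these, 14 probes passed the filter for measurable signal (5 or more arrays with a detection p under 0.05) and were tested together with all 15744 probes that passed it; each of the 10 genes kept at least 1 probe. The other 5 probes are described but were not tested.

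The cells were CD8+ effector memory T cells (TEM) sorted from blood mononuclear cells of 12 rhesus macaques (Macaca mulatta), and their total RNA was hybridised to 23 Illumina bead arrays. The 4 groups were animals after an antibody against IL-15 (6 arrays), animals before that antibody (5 arrays), animals after an IgG1 control antibody (6 arrays) and animals before the control antibody (6 arrays). Arrays were paired by animal. Animal 3 of the anti-IL-15 arm was measured after treatment and has no earlier array here, so it adds nothing to the paired changes. Dose, sampling interval and the age of the animals are not given in the sources used here. The array was designed on human transcripts. Mismatches to the macaque sequence can lower a probe's signal, so groups are compared within a probe or within the same sum of marker probes. Calling a probe bright or dim describes its signal and not the abundance of its transcript.

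Interleukin-15 is a cytokine that maintains memory CD8+ T cells and natural killer (NK) cells and signals through the receptor chain IL2RB. In CD8+ T cells the T-box factors TBX21 (T-bet) and EOMES act with RUNX3 to switch on perforin, granzymes and IL2RB, and ZEB2 works downstream of TBX21 in terminal effector cells, as shown mainly in mice. ZNF683 (Hobit) and its relative PRDM1 (Blimp-1) are repressors of genes for recirculation, ID2 blocks E proteins and favours effector cells, and HOPX, BHLHE40 and IKZF3 (Aiolos) mark or sustain differentiated lymphocytes.

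Of the 10 genes 2 passed the test in some comparison, and they moved in opposite directions. RUNX3, read by its bright probe, fell with anti-IL-15 by 0.94 on the log2 scale (SE 0.18, 5 pairs; 1.92-fold lower). ZNF683 rose with the control antibody by 1.09 (SE 0.26, 6 pairs; 2.13-fold higher). For neither gene did the test show a difference between the arms in the change. The other 8 genes passed no test in any of the 6 comparisons, though ZEB2 and ID2 each passed under 1 alternative setting, given with their values.

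In these counts a probe is called when its Benjamini-Hochberg adjusted p over all 15744 tested probes is under 0.05 in limma. With anti-IL-15, 1 of 14 tested probes of the 10 genes was called, RUNX3, where 0.26% of all tested probes were called. With the control antibody 1 of 14 was called, ZNF683, against 2.15% of all tested probes. For the mean change of both arms 2 of 14 were called, RUNX3 and ZNF683, against 5.34%. One call among 14 is 7.14%, which is a single probe, and these shares are too coarse to be read against the background. In the difference between the changes 0 of 14 were called by limma, against 0.00635% of all tested probes. Of the 14, 1 had an unadjusted p under 0.05, against 8.96% of all tested probes. After treatment 0 of 14 differed between the arms by limma, against 0.00635%, and 2 had an unadjusted p under 0.05, against 7.23%. Before treatment 0 of 14 differed, against 0% (0 of 15744 called, 1673 with an unadjusted p under 0.05), and 1 of the 14 had an unadjusted p under 0.05.

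The changes of the 14 probes did not share a direction. With anti-IL-15, 8 were above 0 and 6 below, with a median log2 change of 0.08, against -0.02 over all tested probes. With the control antibody 5 were above 0 and 9 below, with a median of -0.26, against -0.02 over all tested probes. The spread of the estimates is large next to most of these changes, as the plot of change by probe shows.

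**Figure D1:**
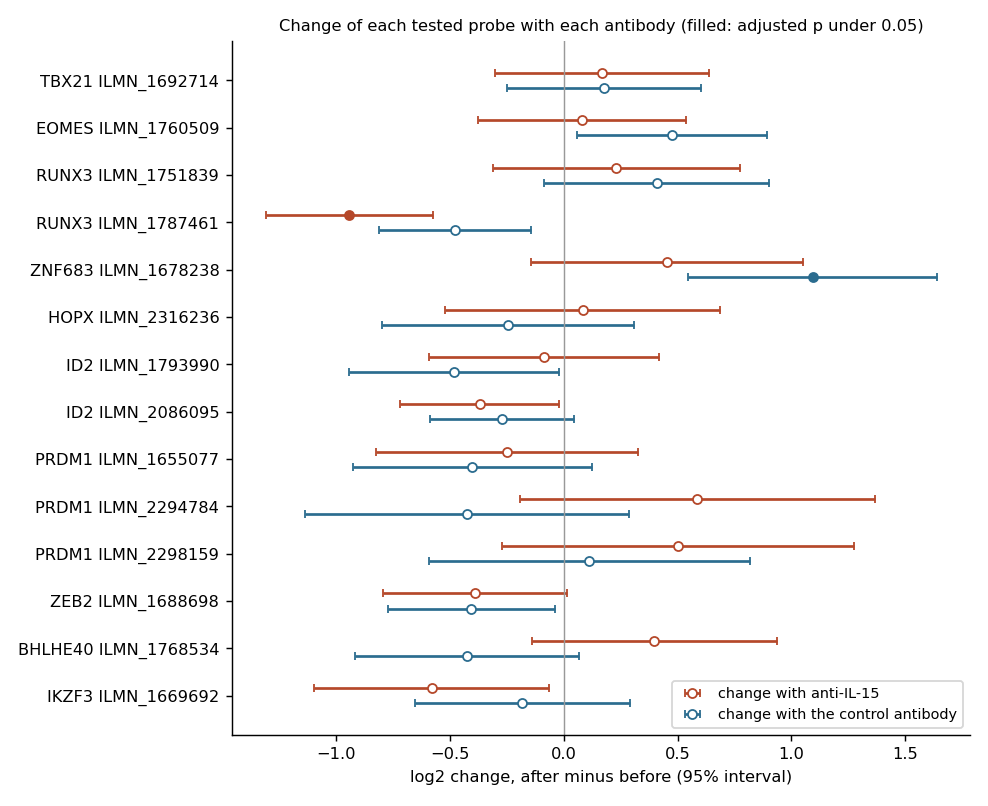
Log2 change after minus before treatment (x axis) for the 14 tested probes (rows), the anti-IL-15 arm in red (5 animals) and the control arm in blue (6 animals). Points are limma estimates with 95% intervals, and filled points have an adjusted p under 0.05: RUNX3 ILMN_1787461 at -0.94 with anti-IL-15 and ZNF683 at 1.09 with the control antibody.

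RUNX3 is a Runt-domain factor that silences CD4 and sets up the cytotoxic programme in CD8+ T cells. Its 2 probes, annotated to different transcript records, gave different pictures. ILMN_1787461 (NM_004350) was bright, with scanner signals of 2051 to 9306, and ILMN_1751839 (NM_001031680) was dim, at 111 to 163, close to the array medians of 92 to 104. Both were detected on 23 of 23 arrays.

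On ILMN_1787461 the normalised log2 intensities after anti-IL-15 were 11.22, 11.25, 11.70, 11.54, 11.52 and 11.16 in animals 1 to 6. Before anti-IL-15 they were 12.71, 11.96, 12.00, 12.52 and 12.21 in animals 1, 2, 4, 5 and 6. All 6 arrays after anti-IL-15 lay below all 5 arrays before it. After the control antibody the values were 11.74, 12.07, 11.80, 12.24, 12.23 and 12.41 in animals 1 to 6. Before the control antibody they were 12.84, 13.23, 11.97, 12.62, 12.47 and 12.22. These 2 control groups overlapped, and the highest array after anti-IL-15 (11.70) was below the lowest after the control antibody (11.74). Over all tested probes 1.14% had no overlap between the anti-IL-15 arrays after and before treatment, and 0.483% had none between the arms after treatment. Of the 14 tested probes of the 10 genes, the other 13 overlapped in both of these comparisons.

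RUNX3 fell in 5 of 5 animals given anti-IL-15, by 0.45 to 1.49 on the log2 scale, with a limma estimate of -0.94 (95% interval -1.31 to -0.57, adjusted p = 0.031). In the control arm it was lower after treatment in 5 of 6 animals, with an estimate of -0.48 (SE 0.16), which did not pass the test (adjusted p = 0.107). The change with anti-IL-15 minus that with the control antibody was -0.46 (95% interval -0.96 to 0.03, adjusted p = 0.591), so the arms were not shown to differ in their change. Averaged over the arms RUNX3 fell by 0.71 (SE 0.12, adjusted p = 0.00652).

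Set side by side after treatment, RUNX3 averaged 11.4 ± 0.218 after anti-IL-15 (SD, n = 6) and 12.08 ± 0.263 after the control antibody (SD, n = 6), a difference of -0.68 (SE 0.14). That comparison between animals did not pass (adjusted p = 0.108). Before treatment the arms averaged 12.28 ± 0.327 in animals due anti-IL-15 (n = 5) and 12.56 ± 0.444 in control animals (n = 6), a difference of -0.28 (adjusted p = 0.639).

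The call with anti-IL-15 depended on single animals. Without anti-IL-15 animal 1, 2 or 5 the adjusted p was 0.164, 0.0935 and 0.0807, while the estimate kept its sign and lay between -1.06 and -0.80 over all 12 omissions. The adjusted p was 0.0541 with no filter on dim probes and 0.0655 without the animal block. Fewer cells were sorted after treatment in 9 of 11 paired animals, with medians of 43500 cells after and 259000 before anti-IL-15, and 101500 after and 296500 before the control antibody. With the log2 cell number as a covariate the RUNX3 change with anti-IL-15 was -0.49 (adjusted p = 0.961), and the mean change of the arms was -0.35 (adjusted p = 0.996). With the level of a 28S ribosomal RNA probe as a covariate the change with anti-IL-15 was -0.80 (adjusted p = 0.101). Cell number fell along with treatment, so in the fit with cell number yield and time cannot be told apart. How far cell yield carries the RUNX3 change was not tested beyond these fits.

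The second RUNX3 probe, ILMN_1751839, did not show that fall. Its levels after anti-IL-15 ran from 5.52 to 6.10 with a median of 5.69, and before anti-IL-15 from 5.29 to 6.04 with a median of 5.52. In control animals it ran from 5.07 to 6.37 with a median of 5.58 after treatment and from 4.95 to 5.72 with a median of 5.18 before it. The groups overlapped in both arms. The estimates were 0.23 (SE 0.26, adjusted p = 0.746) with anti-IL-15 and 0.41 (SE 0.24, adjusted p = 0.376) with the control antibody. Over the 11 paired animals the changes of both RUNX3 probes had a Pearson r of -0.214 (permutation p = 0.523) and a Spearman rho of -0.173 (permutation p = 0.614).

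**Figure D2:**
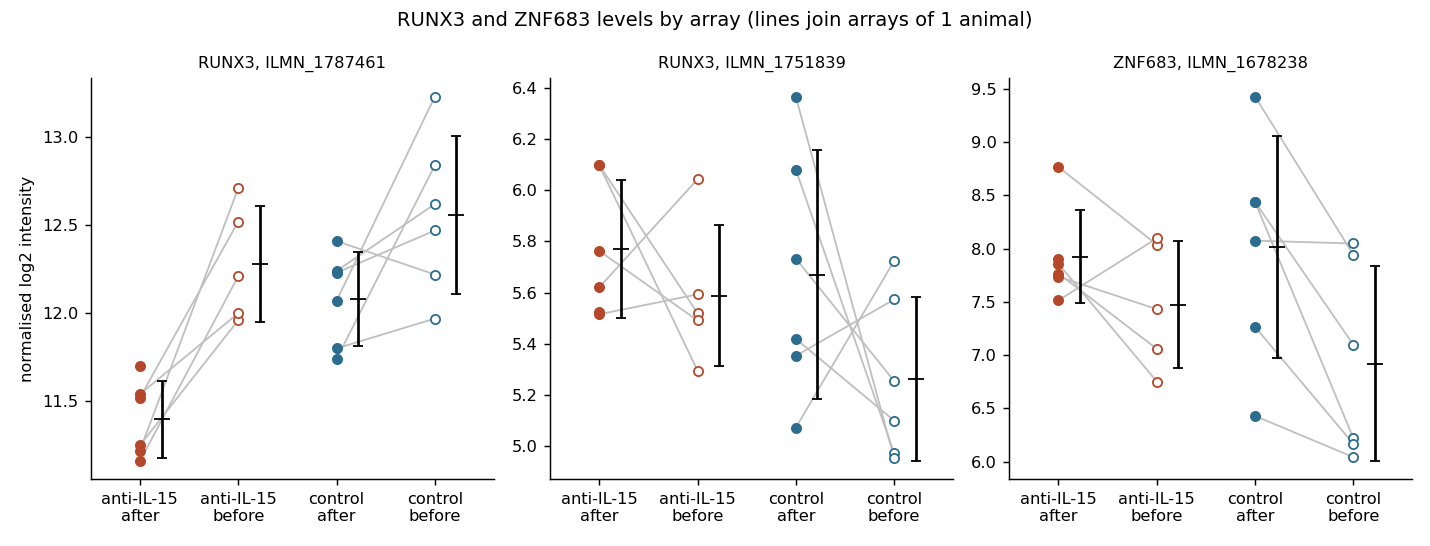
Normalised log2 intensity (y axes, each on its own scale) of both RUNX3 probes and of ZNF683 on each array, by group. Filled points are arrays after treatment and open points arrays before it, grey lines join the arrays of 1 animal, and black marks are means with SD; on the bright RUNX3 probe the arrays after anti-IL-15 lie between 11.16 and 11.70, below those of every other group.

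Of 8 markers of natural killer cells on the list 5 were measured, and NCR1, FCER1G and SH2D1B did not pass the filter. For the mean change of the arms KLRF1 (-0.96, adjusted p = 0.0342), KIR3DL2 (-0.73, adjusted p = 0.0456) and IL2RB (-0.72, adjusted p = 0.0176) fell, while NCAM1, detected on 8 of 23 arrays, was at -0.04 (adjusted p = 0.89) and TYROBP at 0.13 (adjusted p = 0.81). The summed linear intensity of the 5 probes was 433.5 to 3175 (median 973.2) after anti-IL-15, 887.5 to 2114 (median 1528) before it, 496.9 to 1530 (median 860.5) after the control antibody and 903.9 to 1880 (median 1130) before it. The 3 calls were each lost without control animal 1 or anti-IL-15 animal 1 (adjusted p = 0.0939 and 0.08 for KLRF1, 0.115 and 0.131 for KIR3DL2, 0.0515 and 0.0614 for IL2RB), and KLRF1 and KIR3DL2 also without control animal 2 (0.0514 and 0.0862). Further omissions, of anti-IL-15 animals 2 and 4, left KLRF1 at 0.0768 and 0.0665 and KIR3DL2 at 0.0797 and 0.0703, and KIR3DL2 stood at 0.0739 and 0.0789 without control animals 4 and 5. The part of NK-like cells in the RUNX3 change was not tested. In a sorted population, fewer cells of a kind and less RNA per cell cannot be told apart.

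ZNF683, called Hobit, is a zinc finger repressor of resident and long-lived effector T cells. Its single probe, ILMN_1678238, was detected on 23 of 23 arrays. After anti-IL-15 the levels were 8.77, 7.74, 7.90, 7.86, 7.51 and 7.77 in animals 1 to 6, and before it 8.04, 7.43, 6.75, 8.10 and 7.06 in animals 1, 2, 4, 5 and 6. After the control antibody they were 8.44, 8.44, 9.43, 6.43, 8.07 and 7.26 in animals 1 to 6, and before it 6.22, 7.10, 7.94, 6.04, 8.05 and 6.16. Groups overlapped in both arms, and levels spanned 3.39 over all arrays.

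Within animals ZNF683 was higher after the control antibody in 6 of 6, by 0.03 to 2.22, with an estimate of 1.09 (95% interval 0.55 to 1.64, adjusted p = 0.0402). With anti-IL-15 it was higher in 4 of 5 animals, with an estimate of 0.45 (SE 0.29, adjusted p = 0.512). The difference of the changes was -0.64 (95% interval -1.45 to 0.17, adjusted p = 0.661). Averaged over the arms it rose by 0.77 (SE 0.19, adjusted p = 0.0292).

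The ZNF683 call was near its threshold. Leaving out single animals put the adjusted p for the control antibody between 0.0284 and 0.209, and 5 of 12 omissions kept the call. It was lost without control animal 1 (estimate 0.87, adjusted p = 0.209), 2 (0.119), 3 (0.054), 4 (0.0564) or 6 (0.055), and without anti-IL-15 animal 1 (0.0512) or 2 (0.0535), which enter through the shared estimate of spread. The call on the mean of the arms was lost without control animal 1 (adjusted p = 0.0761) or 2 (0.0566) and without anti-IL-15 animal 1 (0.0814), 2 (0.0594) or 4 (0.0603). Fitting the control arm alone gave an adjusted p of 0.0737, and the cell number as a covariate gave an estimate of 0.88 (adjusted p = 0.443). Both calls were lost under scaling to the 75th percentile (adjusted p = 0.0528 with the control antibody and 0.0574 for the mean). Without background correction the control estimate was 0.75 (adjusted p = 0.0481).

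**Figure D3:**
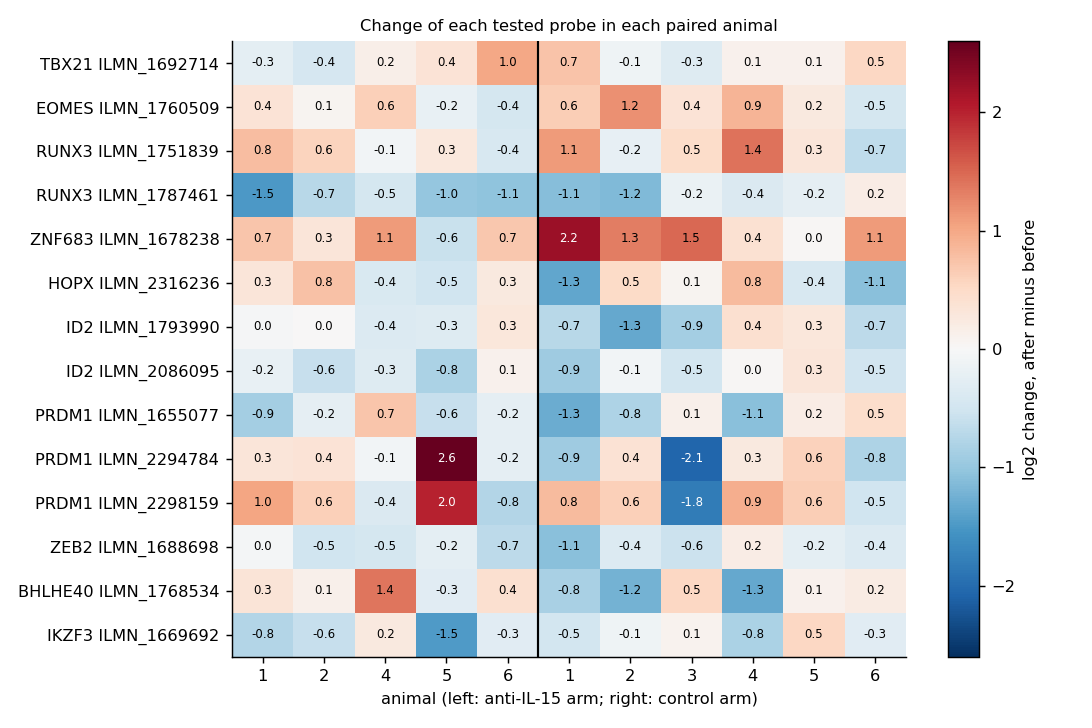
Log2 change after minus before treatment of each tested probe (rows) in each paired animal (columns), with the 5 anti-IL-15 animals left of the line and the 6 control animals right of it; red is higher and blue lower after treatment. The RUNX3 ILMN_1787461 row is below 0 in 10 of 11 animals and the ZNF683 row above 0 in 10 of 11.

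TBX21 and EOMES, the T-box pair that drives effector and memory differentiation, passed no test. TBX21 ILMN_1692714 was dim, with scanner signals of 112 to 160, though detected on 23 of 23 arrays. Its levels ran from 5.30 to 6.58 (median 5.87) after anti-IL-15 and from 5.55 to 6.16 (median 5.75) before it. The control arm ran from 5.33 to 6.21 (median 5.96) after treatment and from 5.47 to 5.95 (median 5.58) before it. The changes were 0.17 (SE 0.22) with anti-IL-15 and 0.18 (SE 0.21) with the control antibody, and their difference was -0.01 (95% interval -0.64 to 0.63), with a sign that turned under all 4 other scalings or backgrounds tried (0.0013 to 0.047).

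EOMES ILMN_1760509 was well above background, with signals of 414 to 1746. The levels ran from 8.61 to 10.46 (median 9.54) after anti-IL-15 and from 8.25 to 10.39 (median 9.73) before it. Control animals read 8.88 to 10.98 (median 9.79) after treatment and 8.63 to 10.35 (median 9.15) before it. EOMES was higher after the control antibody in 5 of 6 animals, with an estimate of 0.47 (SE 0.20) that did not pass (adjusted p = 0.198). With the cell number as a covariate that estimate was 0.04 (adjusted p = 0.98). With anti-IL-15 it was at 0.08 (SE 0.22, adjusted p = 0.915), and the difference of the changes was -0.39 (95% interval -1.01 to 0.23).

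Animals kept part of their order in EOMES over time. Over the 11 pairs the level before and the level after treatment had a Pearson r of 0.738 (permutation p = 0.00943, 0.044 after Benjamini-Hochberg adjustment over 14 such relations) and a Spearman rho of 0.755 (permutation p = 0.0105, adjusted 0.0438). Without the 2 animals farthest from the median r was 0.568. Within the 6 control animals r was 0.654 (exact permutation p = 0.178), and no correlation was computed over the 5 anti-IL-15 pairs. ZEB2 (r = 0.759, permutation p = 0.00922, adjusted 0.044, rho = 0.77, permutation p = 0.00736) and PRDM1 ILMN_1655077 (r = 0.681, permutation p = 0.00876, adjusted 0.044, rho = 0.809, permutation p = 0.00399) gave like values over the 11 pairs, with r of 0.61 and 0.715 without the 2 farthest animals. Within the 6 control animals their r was 0.561 (exact permutation p = 0.228) and 0.683 (exact permutation p = 0.158). None of these 3 relations, of EOMES, ZEB2 and PRDM1 ILMN_1655077, passed within the control arm. The other tested PRDM1 probes differed from it. ILMN_2294784 had r = 0.0993 (permutation p = 0.767) and rho = 0.209 (permutation p = 0.54). ILMN_2298159 had r = 0.332 (permutation p = 0.324) but rho = 0.736 (permutation p = 0.0125, adjusted 0.0438). For RUNX3 ILMN_1787461 r was 0.27 (permutation p = 0.419) and rho 0.209 (permutation p = 0.536). On the dim RUNX3 probe, ILMN_1751839, r was -0.556 (permutation p = 0.076) and rho -0.574 (permutation p = 0.0685).

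PRDM1 encodes Blimp-1, a repressor of memory potential in effector lymphocytes, and its 4 probes disagreed. ILMN_2414165 was detected on 0 of 23 arrays. ILMN_1655077 and ILMN_2298159 are annotated to NM_001198 and ILMN_2294784 to NM_182907. ILMN_2298159 was dim, at signals of 90 to 269, and was detected on 20 of 23 arrays.

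ILMN_1655077 ran from 7.10 to 8.10 (median 7.47) after anti-IL-15 and from 6.70 to 8.56 (median 7.71) before it. For the control arm the levels were 6.97 to 9.04 (median 7.62) after treatment and 6.83 to 8.87 (median 8.77) before it. Its changes were -0.25 (SE 0.28) with anti-IL-15 and -0.40 (SE 0.25) with the control antibody. Neither passed (adjusted p = 0.744 and 0.427).

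ILMN_2294784 ran from 6.35 to 9.66 (median 7.09) after anti-IL-15, the top value being animal 5, and from 6.59 to 7.07 (median 6.76) before it. In control animals it ran from 5.55 to 7.53 (median 6.61) after treatment and from 6.07 to 7.76 (median 7.03) before it. The changes were 0.59 (SE 0.37) with anti-IL-15, of which animal 5 gave 2.59, and -0.42 (SE 0.34) with the control antibody. Their difference was 1.01 (95% interval -0.04 to 2.07, adjusted p = 0.576).

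ILMN_2298159 ran from 4.46 to 7.75 (median 6.11) after anti-IL-15 and from 5.19 to 5.75 (median 5.34) before it. The control arm ran from 4.35 to 7.00 (median 5.83) after treatment and from 4.86 to 7.65 (median 5.38) before it. The changes were 0.50 (SE 0.37) with anti-IL-15 and 0.11 (SE 0.34) with the control antibody, and neither passed. It changed in the same direction as ILMN_2294784 in 10 of 11 animals, the exception being control animal 1 (-0.92 on ILMN_2294784 and 0.82 on ILMN_2298159). Among those that agreed, ILMN_2298159 was not detected in control animal 6 at either time, nor in anti-IL-15 animal 6 after treatment. Both probes were up in anti-IL-15 animal 5 (2.59 on ILMN_2294784 and 2.00 on ILMN_2298159) and down in control animal 3 (-2.05 and -1.83). Over 11 animals these 2 probes' changes had r = 0.829 (permutation p = 0.00265, adjusted over 5 probe pairs 0.0132) and rho = 0.609 (permutation p = 0.0517). Without the 2 animals farthest from the median change of ILMN_2294784 r was 0.442, and the narrower range by itself can lower r. Within the 6 control animals r was 0.826 (exact permutation p = 0.0569). Against ILMN_1655077 the changes of ILMN_2298159 had r = -0.61 (permutation p = 0.0459, adjusted 0.115) and rho = -0.655 (permutation p = 0.0348, adjusted 0.129), which did not pass the adjustment, and within the 6 control animals r was -0.658 (exact permutation p = 0.175).

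**Figure D4:**
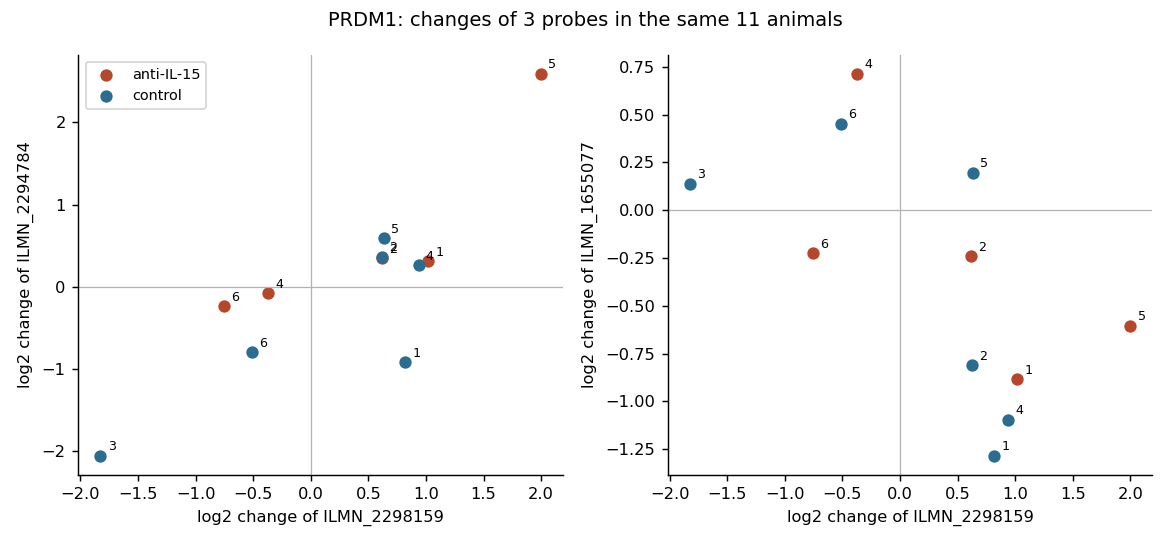
Log2 changes of PRDM1 probes in the same 11 animals, with ILMN_2298159 on the x axis and ILMN_2294784 (left) or ILMN_1655077 (right) on the y axis; numbers are animals, red the anti-IL-15 arm and blue the control arm. In the left panel anti-IL-15 animal 5 (2.00, 2.59) and control animal 3 (-1.83, -2.05) lie far from the rest, and in the right panel the points run the other way (r = -0.61).

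ID2, an inhibitor of E-protein transcription factors, was read by 2 probes on NM_002166. The brighter, ILMN_2086095, ran from 10.98 to 11.93 (median 11.38) after anti-IL-15 and from 11.27 to 12.52 (median 11.59) before it. Control animals read 11.08 to 12.20 (median 11.45) after treatment and 11.52 to 12.03 (median 11.81) before it. Its changes were -0.37 (SE 0.17, adjusted p = 0.352) with anti-IL-15, lower in 4 of 5 animals, and -0.27 (SE 0.15, adjusted p = 0.359) with the control antibody, lower in 4 of 6. The mean of the arms, -0.32 (SE 0.11), did not pass (adjusted p = 0.0986) except without anti-IL-15 animal 6 (-0.38, adjusted p = 0.0493). ILMN_1793990 was at -0.08 (SE 0.24) with anti-IL-15 and -0.48 (SE 0.22, adjusted p = 0.242) with the control antibody, so both probes were below 0 in both arms while differing in which arm was lower. Their changes over 11 animals had r = 0.465 (permutation p = 0.148) and rho = 0.5 (permutation p = 0.121).

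ZEB2, a zinc finger E-box repressor of terminal effector cells, had 1 tested probe. ILMN_1688698 was dim, at signals of 98 to 183, and was detected on 4 of 6 arrays after anti-IL-15, 5 of 5 before it, 5 of 6 after the control antibody and 6 of 6 before it. It ran from 4.63 to 5.92 (median 5.07) after anti-IL-15 and from 5.15 to 6.17 (median 5.42) before it. For the control arm the levels were 4.65 to 6.13 (median 5.54) after treatment and 5.21 to 6.32 (median 5.93) before it. ZEB2 was lower after treatment in 5 of 5 anti-IL-15 animals (-0.39, SE 0.19, adjusted p = 0.399) and in 5 of 6 control animals (-0.40, SE 0.18, adjusted p = 0.213). The mean of the arms was -0.40 (SE 0.13) and did not pass (adjusted p = 0.0777), but it passed under scaling to the 75th percentile (-0.46, adjusted p = 0.0367). That mean was -0.22 with an offset of 50 (adjusted p = 0.0965) and -0.14 without background correction (adjusted p = 0.0993). The difference of the changes was 0.02 (95% interval -0.53 to 0.56). The other ZEB2 probe, ILMN_1820767, was not well above background on 21 of 23 arrays, and the 2 detected arrays were both from before anti-IL-15.

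IKZF3 encodes Aiolos, an Ikaros-family factor of mature lymphocytes. ILMN_1669692 ran from 5.02 to 6.39 (median 6.03) after anti-IL-15 and from 5.84 to 6.77 (median 6.31) before it. In control animals it ran from 6.34 to 7.36 (median 6.85) after treatment and from 6.26 to 7.53 (median 7.13) before it. The anti-IL-15 animals were the lower arm at both times, by 1.00 after treatment (SE 0.27, adjusted p = 0.286) and by 0.71 before it (SE 0.26, adjusted p = 0.396), and neither difference passed. The changes were -0.58 (SE 0.25, adjusted p = 0.324) with anti-IL-15, lower in 4 of 5 animals, and -0.18 (SE 0.23, adjusted p = 0.741) with the control antibody, lower in 4 of 6. The change in anti-IL-15 animal 5 was -1.48, and without that animal the estimate was -0.35. Without background correction it was -0.26. The other probe, ILMN_2300695, was detected on 0 of 23 arrays.

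BHLHE40, a basic helix-loop-helix repressor tied to cytokine production and resident T cells, had the smallest unadjusted p of the 14 probes for the difference of the changes. ILMN_1768534 ran from 9.95 to 11.15 (median 10.78) after anti-IL-15 and from 9.17 to 11.41 (median 10.67) before it. The control arm ran from 9.41 to 11.52 (median 10.09) after treatment and from 9.75 to 11.41 (median 10.64) before it. It was higher after anti-IL-15 in 4 of 5 animals (0.40, SE 0.26, adjusted p = 0.526) and split 3 against 3 in the control arm (-0.42, SE 0.24, adjusted p = 0.352). The difference of the changes was 0.82 (95% interval 0.09 to 1.55, unadjusted p = 0.0292), which over all tested probes did not pass (adjusted p = 0.5). An exact permutation test of that difference, over all 462 splits of the 11 paired animals, gave p = 0.102 (adjusted over the 14 probes 0.536).

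HOPX, an atypical homeodomain protein of differentiated effector and memory T cells, passed no test. Of its 3 probes ILMN_2316236 was detected on 23 of 23 arrays, ILMN_1766643 on 2, of which 1 was after anti-IL-15 and 1 after the control antibody, and ILMN_1735570 on 0. ILMN_2316236 ran from 6.26 to 7.43 (median 7.24) after anti-IL-15 and from 5.94 to 7.75 (median 7.01) before it. Control animals read 6.08 to 7.95 (median 6.80) after treatment and 5.57 to 8.26 (median 7.27) before it. The changes were 0.08 (SE 0.29), at -0.02 under scaling to the 75th percentile, with anti-IL-15 and -0.24 (SE 0.26) with the control antibody.

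The partners and relatives of these factors, such as other Runx, Ikaros and Id proteins, had 8 of 14 listed genes measured. By limma 0 were called with either antibody, and 3 had an unadjusted p under 0.05 with anti-IL-15 and 0 in the control arm. Over all tested probes 13.1% and 18.6% had such a p. IKZF5 rose in the mean of the arms (0.51, SE 0.12, adjusted p = 0.0249), being higher in 5 of 5 anti-IL-15 animals (0.84, adjusted p = 0.0578) and in 4 of 6 control animals. Its anti-IL-15 estimate was the larger, and no gene of this list was called for the difference of the changes. The IKZF5 probe was near background, at signals of 95 to 137, and was detected on 6 of 6 arrays after anti-IL-15, 3 of 5 before it, 3 of 6 after the control antibody and 1 of 6 before it, so the size of its change is poorly fixed. That call was lost without control animal 1 (adjusted p = 0.059) or 2 (0.055) and without anti-IL-15 animal 2 (0.0546) or 5 (0.0714). The list's median change was -0.13 with anti-IL-15 and 0.00 (-0.00372) in the control arm, against -0.02 over all tested probes in each.

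Regulators of naive and memory cells had 11 of 13 listed genes measured. By limma 0 were called in either arm alone, with 2 at an unadjusted p under 0.05 with anti-IL-15 and 4 in the control arm. The shares over all tested probes were 13.1% and 18.6%. Both LEF1, which keeps T cells in a less differentiated state, and KLF2, which drives the genes of recirculation, were lower in 5 of 5 animals given anti-IL-15 (-0.47 for each, adjusted p = 0.357 and 0.142). With the control antibody LEF1 was higher in 5 of 6 animals (0.42, adjusted p = 0.253), and the difference of its changes was -0.89 (unadjusted p = 0.0062, adjusted 0.409). The LEF1 probe was dim and detected on 17 of 23 arrays. KLF2 fell in the mean of the arms (-0.37, SE 0.09, adjusted p = 0.0255), a call lost without control animal 1 (0.0708) or 2 (0.0582), without anti-IL-15 animal 1 (0.0776) or 5 (0.0729) and under scaling to the 75th percentile (adjusted p = 0.394). With the control antibody the smallest p values were those of BCL11B (-0.62, adjusted p = 0.0612) and BCL6 (0.59, adjusted p = 0.162). The list's median was -0.25 with anti-IL-15 and -0.11 in the control arm.

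Regulators of activation and exhaustion had 15 of 20 listed genes measured, and 0 were called by limma in either arm alone. An unadjusted p under 0.05 was found for 2 with anti-IL-15 and 6 in the control arm, against 13.1% and 18.6% of all tested probes. BATF, an AP-1 factor of activated T cells, rose in the mean of the arms (0.45, SE 0.12, adjusted p = 0.0312), being higher in 5 of 5 anti-IL-15 animals (0.59, adjusted p = 0.156) and in 5 of 6 control animals. The BATF call was lost without control animal 1 (0.0806) or 2 (0.0522) and without anti-IL-15 animal 1 (0.0846), 2 (0.069), 4 (0.0658) or 5 (0.0622), each an adjusted p. JUNB, another AP-1 subunit, was higher in 5 of 5 anti-IL-15 animals (0.41, adjusted p = 0.379) and lower in 4 of 6 control animals (-0.39, adjusted p = 0.237), with a difference of the changes of 0.79 (unadjusted p = 0.00663, adjusted 0.412). Its probe was near background and detected on 6 of 6 arrays after anti-IL-15, 2 of 5 before it, 2 of 6 after the control antibody and 5 of 6 before it. TOX was higher in 6 of 6 control animals (0.68, adjusted p = 0.0687), against -0.03 with anti-IL-15, and TOX2 lower in 5 of 6 (-0.69, adjusted p = 0.107), also against -0.03. No gene of this list was called for the difference of the changes, so the arms were not shown to differ. The list's median was 0.03 with anti-IL-15 and 0.13 in the control arm.

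Genes that these factors raise in mouse or human lymphocytes had 19 of 25 members measured, and those that passed fell. The list was chosen with earlier results of these data known and was not tested as a set. With the control antibody 5 of 19 were called, against 2.15% of all tested probes in either direction and 1.26% lower. All 5 were lower in 6 of 6 animals: PRF1, the pore-forming protein perforin (-1.46, SE 0.29, adjusted p = 0.0212), the chemokine CCL5 (-1.09, SE 0.18, adjusted p = 0.0104), the fractalkine receptor CX3CR1 (-1.43, SE 0.25, adjusted p = 0.0106), the granule protein NKG7 (-0.97, SE 0.24, adjusted p = 0.0432) and the co-receptor chain CD8A (-0.77, SE 0.14, adjusted p = 0.0106). Without control animal 1 or 2 none of these 5 passed (adjusted p = 0.123 and 0.0866 for PRF1, 0.0737 and 0.0511 for CCL5, 0.0748 and 0.0511 for CX3CR1, 0.103 and 0.136 for NKG7, 0.0958 and 0.0637 for CD8A), PRF1 lost its call without control animal 4 as well (0.063), and NKG7 kept its call in 4 of 12 omissions. With anti-IL-15 0 were called by limma, and 5 of 19 had an unadjusted p under 0.05, against 13.1% of all tested probes. CX3CR1 was lower in 5 of 5 animals (-1.26, adjusted p = 0.0578) and PRF1 in 4 of 5 (-1.08, adjusted p = 0.161). The list's median was 0.00 (-0.00473) with anti-IL-15 and -0.27 in the control arm, against -0.02 over all tested probes in each. For CCL5 the difference of the changes was 1.11 (SE 0.27) and did not pass (adjusted p = 0.317). In the mean of the arms, where 2.69% of all tested probes were called lower, PRF1, CCL5, CX3CR1, CD8A and IL2RB fell, by 1.27, 0.53, 1.34, 0.59 and 0.72 (adjusted p = 0.00702, 0.0299, 0.00112, 0.00776 and 0.0176). The CCL5 estimate with anti-IL-15 was not below 0, so its lower mean came from the control arm. The CCL5 call on that mean was lost without control animal 1 or 2 (adjusted p = 0.0673 and 0.0618) and without anti-IL-15 animal 1, 4 or 5 (0.0776, 0.0646 and 0.0631). With the cell number as a covariate none of the calls named for list genes remained, in a fit that cannot tell yield and time apart.

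Genes that the factors lower had 4 of 9 members measured, and 0 were called in either arm by limma, with 1 at an unadjusted p under 0.05 in each. The median was -0.22 with anti-IL-15 and 0.10 in the control arm. KLF2, described above, is the member that fell in the mean of the arms.

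The genes whose brightest probe ran most like each factor over the 23 arrays were found among 9189 other genes, as a description only, since arrays share animals, groups and cell yield. RUNX3 ran closest with SYTL2 (r = 0.871) and PTPN4 (r = 0.86), the highest likeness of any of the 10. ZEB2 ran with GLRX (0.858) and ATP6AP2 (0.82), PRDM1 with RSRC2 (0.839) and PPP2R5E (0.811), IKZF3 with GGH (0.813) and GPR137 (0.793), and EOMES with FGR (0.803) and LINC03019 (0.726). ID2 ran with ZNF23 (0.796) and KAT2B (0.78), BHLHE40 with CDKN1A (0.782) and TMEM179B (0.778), and ZNF683 with GNB1L (0.76) and ATP2A3 (0.711). HOPX ran with NOC2L (0.7) and METTL23 (0.698), and TBX21 with PLA2G6 (0.69) and PLA2G15 (0.667). No other of the 10 factors was among these nearest genes.

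The change in cell yield was set against the changes of the called probes. Over 11 animals the log2 ratio of sorted cells and the RUNX3 change had r = 0.635 (permutation p = 0.0382, adjusted over 4 relations 0.153) and rho = 0.518 (permutation p = 0.109). Without the 2 animals farthest from the median ratio, control animals 5 and 6, r was 0.231. Leaving them out narrows the range of the ratio, which by itself can lower r. Within the 6 control animals r was 0.765 (exact permutation p = 0.106). For ZNF683 the values were r = -0.0971 (permutation p = 0.773) and rho = 0.0182 (permutation p = 0.968).

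**Figure D5:**
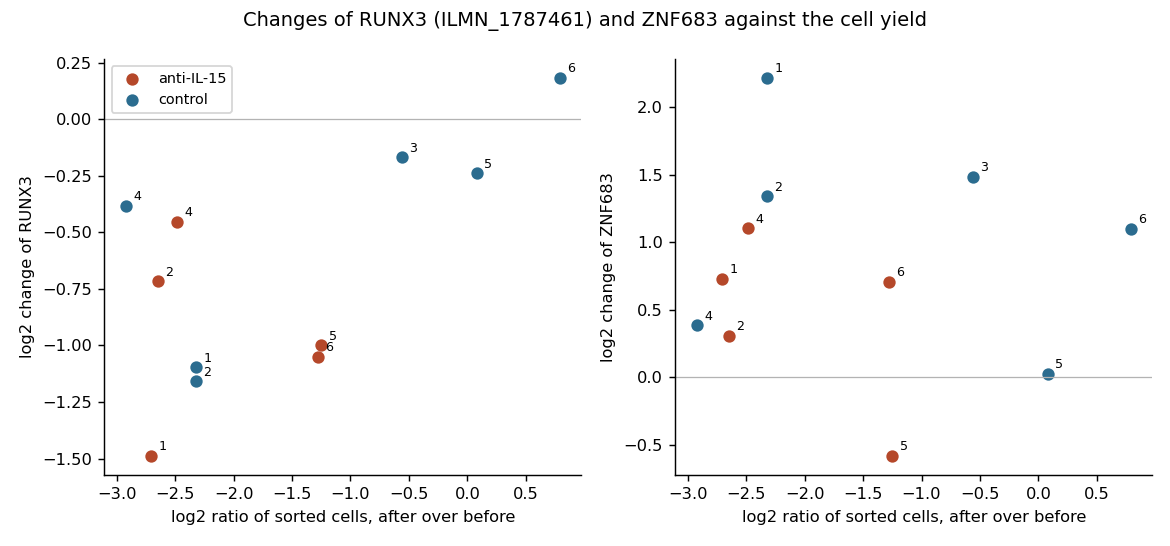
Log2 change of RUNX3 ILMN_1787461 (left) and ZNF683 (right) after treatment (y axes) against the log2 ratio of sorted cells after over before (x axes) in 11 animals; numbers are animals, red the anti-IL-15 arm and blue the control arm. Control animals 5 and 6, whose yield did not drop, show RUNX3 changes of -0.24 and 0.18. Control animal 4, with the deepest drop (-2.92), shows -0.38 and anti-IL-15 animal 4 (-2.49) shows -0.45. Of the other deep drops, anti-IL-15 animals 1 (-2.71) and 2 (-2.65) show -1.49 and -0.72. Control animals 1 and 2 (-2.32 each) show -1.10 and -1.16.

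Over the series, each array detected 11263 to 14132 probes. Markers of CD8+ T cells had 6 of 7 measured. CD3D, CD3G, CD8A, CD2 and LCK were detected on 23 of 23 arrays. CD8B was near background, at signals of 90 to 135, and was detected on 9 of 23. The summed linear intensity of the 6 had a median of 22980 after and 22790 before anti-IL-15 (21290 to 24140 and 20370 to 25290). In the control arm it was 20660 after and 27820 before the antibody (19390 to 25810 and 22720 to 28240). With the control antibody all 6 were below 0 and CD8A, given above, and CD2 fell. CD2 changed by -0.81 (adjusted p = 0.0354) with the control antibody, lower in 6 of 6 animals, by -0.38 (adjusted p = 0.429) with anti-IL-15 and by -0.59 (adjusted p = 0.0205) in the mean of the arms. The control call of CD2 was lost without control animal 1 (0.189), 2 (0.101), 4 (0.0833) or 5 (0.0537), and the mean call without control animal 1 (0.0581) or anti-IL-15 animal 2 (0.0591) or 5 (0.0622). The part of this shift in the changes of ZNF683 and of the genes raised by the factors was not tested. Of the CD4 and regulatory T cell list the single measured gene was IL2RA (20.5 to 46.96), and CD4 and FOXP3 did not pass the filter. Of the B cell list 3 of 7 were measured (87.74 to 360.9), and of the monocyte list 3 of 8 (96.53 to 203.1). Platelet and haemoglobin genes ranged widely, from 388.4 to 19820 over 3 of 7 markers. Equal masses of RNA were amplified, so a level is a share of the RNA and not an amount in a cell. Precision is limited by the number of arrays.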

How the data were processed

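The deposited signal table gives for every probe and array a linear intensity, which the authors did not normalise, and a detection p-value. The authors' other deposited table is on the log2 scale. Its values match quantile normalised signals without background correction (median absolute difference 0.000985) and served as an alternative. That match sets the table's direction and scale. Its column medians are 6.60 to 6.61, and it was not centred by gene. Limma appears in the submitters' processing notes, without a version. Per the labels' protocols, RNA passed a quality threshold and equal masses were amplified.

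With neqc (limma 3.58.1, R 4.3.3), background was modelled by normexp from negative controls that detection p-values imply (offset 16), arrays were quantile normalised and log2 taken. A probe was kept if 5 or more arrays had a detection p under 0.05 and no array a signal of 0 (9 probes held one), which left 15744 of 47230. The annotation gives 11131 of them a single symbol, 1 several and 4612 no symbol. A single limma fit of all 23 arrays, blocked by animal, gave the paired changes and the test between them. The arms were compared in fits of 12 and 11 arrays. All fits used a variance trend, Benjamini-Hochberg adjustment over 15744 probes and a threshold of 0.05. The donor label pairs the arrays. Deviations from the group means correlated at a median of 0.284 (lowest -0.0225, highest 0.473) within an animal. Pairs of different animals had a median of -0.0534. Replicates are animals.

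The 10 members, the 5 lists of other genes and the 8 marker lists were chosen with earlier results of these data known, and no list was tested as a set. All 19 probes are described. A list gene is read by its kept probe with the highest mean over 9190 genes and named where called or, failing any, where its p is among the 2 smallest in its list; a few further genes, CD2 and the detail of 5 NK markers were picked after their values were seen. Genes of the lists with no row in the table were not analysed here. The fits were tested on simulated data. Alternatives were an offset of 50, no background correction, scaling to the 75th percentile, the deposited log2 values, no filter, 1 probe per gene, cell number or 28S as a covariate, no block, a fit within the arm, and leaving out each animal. Permutation tests of correlations used 100000 resamples, or all orders where n was 6. The exact test of the difference of the changes used all 462 splits of the paired animals. All were two-sided.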

Additional observations from a re-analysis of the deposited data

Results flagged for a closer look

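Among 84 sets of 5 or 6 levels or changes of the tested probes, 5 held a value that stood apart from the rest by Dixon's test at the 95% level, and chance alone marks about 1 set in 20. ZNF683 read 8.766 after anti-IL-15 in animal 1, where the other 5 arrays of the group read 7.514 to 7.904. HOPX ILMN_2316236 read 6.265 after anti-IL-15 in the same animal, with the others at 7.094 to 7.431. PRDM1 ILMN_2294784 read 9.658 after anti-IL-15 in animal 5, with the others at 6.351 to 7.333. Its change in that animal was 2.591, with the others at -0.2363 to 0.3509. ZEB2 ILMN_1688698 read 6.171 before anti-IL-15 in animal 5, with the others at 5.152 to 5.447. Of the 5 values, 2 belong to animal 1 and 3 to animal 5 of the anti-IL-15 arm.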

How the results depend on the processing

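The 34 results recomputed were those of the 10 factors with a call or an unadjusted p under 0.05, and those of list genes with a call. Over 723 recomputations no direction reversed, 590 stayed on the same side of the threshold, 130 lost a call and 3 gained one (RUNX3, ZEB2 and ID2). Results without a call, such as those of EOMES, IKZF3 and BHLHE40, could not lose one, so 590 overstates how stable the calls were. The call of RUNX3 with anti-IL-15 stayed in 15 of 22 alternatives and that of ZNF683 with the control antibody in 10 of 22. Over all tested probes, the 41 calls for anti-IL-15 became 16 with no filter on dim probes, 75 genes with 1 probe per gene, 2 with cell number, 13 with 28S and 1 without the replicate block; leaving out 1 animal gave 7 to 101. Of the 10 factors' probes, 0 in place of 1 were then called with no filter, cell number, 28S or no block, and 0 to 1 when an animal was left out. For the control antibody 339 became 225 without background correction, 585 with 75th percentile scaling (153 higher, 432 lower, against 140 and 199), 90 with no filter, 201 with 1 probe per gene, 0 with cell number, 1358 with 28S, 68 without the block and 43 within the arm, and 0 to 598 over omissions. The factors' count there was 0 with percentile scaling, no filter, cell number, no block or the arm alone, 2 with 28S (RUNX3, -0.47, adjusted p = 0.0479, is added), and 0 to 1 over omissions. The difference of the changes went to 0 with no filter, 4 with cell number, 16 with 28S and 0 without the block, with 0 to 2 over omissions.

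For the mean change, 841 became 223 with no filter, 0 with cell number, 413 with 28S and 203 without the block, with 152 to 1298 over omissions. The factors' count was 1 with no filter, 0 with cell number, 1 without the block and 1 to 3 over omissions. It stayed at 2 with percentile scaling, where ZEB2 was called in place of ZNF683. RUNX3 kept this call in 20 of 21 alternatives, cell number being the exception, and ZNF683 in 12. Calls after treatment went to 6 with offset 50, 3 without background correction, 4 with percentile scaling, 3 with the deposited values, 0 with no filter, 5 with cell number and 7 with 28S, with 0 to 23 over omissions. Before treatment omissions gave 0 to 1. Cell number was lower after treatment in 5 of 5 anti-IL-15 and 4 of 6 control animals. With it as a covariate no call among the named genes remained. Yield and time cannot be told apart in that fit, so a call lost there does not show that yield carried the change. The cause of these shifts was not tested.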

Other observations

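The 28S ribosomal RNA probe averaged 9.74 ± 1.77 after anti-IL-15 (SD, n = 6) and 8.19 ± 1.54 before it (n = 5), and 8.73 ± 2.13 after the control antibody (n = 6) and 8.59 ± 1.95 before it (n = 6), on the log2 scale. Its change ran from -1.91 to 4.28 over the anti-IL-15 animals and from -3.62 to 4.10 over the control animals, against -2.05 to 2.59 over all animals for the most variable tested probe of the 10 factors, PRDM1 ILMN_2294784.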
